A study of Rattus norvegicus with 9 samples.

Results

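The genes described here were 10 genes of gp130 and STAT3 signaling, chosen by name from the 23953 genes of the count table: the ligands Lif and Cntf, the receptor chains Il6st, Lifr, Osmr and Cntfr, the kinases Jak1 and Jak2, the transcription factor Stat3 and the inhibitor Socs3. RNA-seq libraries came from rat neural stem cells (NSCs), which the labels assign to spinal cord tissue and which were in their second passage from newborn rats. The Con group was kept in differentiation medium alone, the Exo group in this medium plus exosomes that bone marrow mesenchymal stem cells (BMSCs) had released, and the pLV-Exo-Wnt5a group in this medium with exosomes of BMSCs that overexpressed Wnt5a from a lentivirus. By the study's methods, the exosomes of the Exo group came from BMSCs that carried the empty lentiviral vector. Each group had 3 libraries, and the labels do not say whether these came from separate cultures. The p-values therefore measure only the spread between these libraries, which may be technical. Wnt5a was overexpressed in the donor BMSCs, not in the sequenced NSCs, and the time of harvest for sequencing was not given in the sources used here.

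gp130, the product of Il6st, is the signal-transducing chain shared by the receptors of the interleukin-6 family. Leukemia inhibitory factor (Lif) acts through gp130 with Lifr, ciliary neurotrophic factor (Cntf) through gp130 with Lifr and Cntfr, and oncostatin M through gp130 with Osmr or Lifr. The bound receptor activates Janus kinases such as Jak1 and Jak2, which phosphorylate STAT3. Phosphorylated STAT3 enters the nucleus and raises transcription of target genes, among them its own gene and Socs3, whose product shuts the receptor off. In neural precursors this pathway is known for driving astrocyte differentiation, with Gfap as a target. RNA-seq measured the transcripts and not the phosphorylation of STAT3.

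Total counts were between 32765138 and 40427647 per library, and levels are given as CPM, the count scaled to a fixed library size after TMM normalization over the 9 libraries. A gene with a count of 0 could still have had up to 3 counts, or 0.0727 to 0.0913 CPM, from counting error alone. Con replicate 1 stood apart from the other libraries, with a TMM factor of 0.965 against 0.996 to 1.02. The 8 neural stem cell markers were present in every library. Of 10 Hox genes of the spinal cord, 3 were in the table, all at or below 3 counts in every library, whereas the 9 forebrain markers had over 10 counts in every library. The table gives mouse symbols and mouse gene numbers for cells labelled as rat. The cells were sequenced in bulk, where more cells of a type and more RNA per cell cannot be told apart.

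Both ligands had few counts. Lif had 0.104, 0.0257 and 0.183 CPM in Con replicates 1, 2 and 3, 0.181, 0.297 and 0.606 CPM in the Exo libraries, and 0.959, 0.602 and 0.533 CPM in the pLV-Exo-Wnt5a libraries. These levels rested on 11, 43 and 82 counts summed over each group. All pLV-Exo-Wnt5a libraries lay above all Con libraries, and Exo overlapped both. Groups were compared with edgeR's quasi-likelihood test, and Q is its p adjusted over all genes tested by the Benjamini-Hochberg method. An unadjusted p under 0.05 is called the unadjusted threshold below. Lif rose at the unadjusted threshold in pLV-Exo-Wnt5a against Con, by a log2 fold change (log2FC) of 2.74 (SE 0.63, Q = 0.269). Its p was under 0.05 in 11 of 11 alternative fits, with Q under 0.05 in 0 of them and a lowest Q of 0.0591. Against Con, Lif passed the filter on low counts only through pLV-Exo-Wnt5a, with 22 to 38 counts per library against 1 to 6. The filter thus largely fixed the direction of that change. Between pLV-Exo-Wnt5a and Exo the log2FC of Lif was 0.95 (95% interval -0.19 to 2.10, Q = 0.525), with p under 0.05 in 1 of 11 alternative fits, that without Exo replicate 3 (log2FC 1.54). Over these 11 fits it ran from 0.63 to 1.54. Lif failed the filter on low counts between Exo and Con. In the fit over all 9 libraries, which tested it there, its log2FC was 1.81, with an unadjusted p under 0.05 (Q = 0.221). Lif passed the filter of that fit only because the pLV-Exo-Wnt5a libraries were included. Cntf had 1 count in 1 Exo library and 0 in the other 8 libraries, and was not tested.

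The receptor chains moved in different directions. Il6st, the gp130 chain itself, had 146, 164 and 158 CPM in Con, 137, 128 and 140.0 CPM in Exo, and 127, 123 and 151 CPM in pLV-Exo-Wnt5a. All Exo libraries were below all Con libraries, while pLV-Exo-Wnt5a overlapped both groups. Il6st fell at the unadjusted threshold in Exo against Con (log2FC -0.21, SE 0.08, Q = 0.277) and in pLV-Exo-Wnt5a against Con (-0.23, SE 0.09, Q = 0.576). Its p was under 0.05 in 9 of 12 alternative fits against Con for Exo, lost among others without Con replicate 2 or Exo replicate 2. For pLV-Exo-Wnt5a it was under 0.05 in 8 of 12, lost without Con replicate 2 or 3 or pLV-Exo-Wnt5a replicate 1 or 2. Between pLV-Exo-Wnt5a and Exo the estimate was -0.00 with a 95% interval from -0.18 to 0.18.

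Osmr, the chain that pairs with gp130 to bind oncostatin M, had 1.12, 0.514 and 1.00 CPM in Con, 1.11, 1.16 and 0.606 CPM in Exo, and 1.72, 1.80 and 2.30 CPM in pLV-Exo-Wnt5a. It was the one gene of the 10 whose pLV-Exo-Wnt5a libraries all exceeded all Con and Exo libraries, an order seen in 1.96% of all genes tested. Its counts were 20 to 47 per library in Con and Exo and 66 to 95 in pLV-Exo-Wnt5a. Osmr rose at the unadjusted threshold in pLV-Exo-Wnt5a against Exo (log2FC 1.03, SE 0.33, Q = 0.230, a fold change of 2.04) and against Con (1.14, SE 0.35, Q = 0.473). In both comparisons p was under 0.05 in 12 of 12 alternative fits, and Q in 0 of 12, with lowest Q values of 0.0866 against Exo and 0.191 against Con. Between Exo and Con the log2FC of Osmr was 0.12 (95% interval -0.81 to 1.05).

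Lifr, the partner chain for Lif and Cntf, had 8.30, 11.2 and 11.6 CPM in Con, 18.7, 14.3 and 9.50 CPM in Exo, and 8.93, 9.13 and 13.5 CPM in pLV-Exo-Wnt5a. All 3 groups overlapped. Its log2FC was 0.44 in Exo against Con (95% interval -0.07 to 0.95), -0.41 in pLV-Exo-Wnt5a against Exo (-0.93 to 0.10) and 0.02 in pLV-Exo-Wnt5a against Con (-0.41 to 0.45), none past the threshold. Exo replicate 3 had the lowest level of its group. Without it, Lifr passed the unadjusted threshold in Exo against Con, at 0.67, and in pLV-Exo-Wnt5a against Exo, at -0.63. Without Exo replicate 1, the highest, these values were 0.20 and -0.17, past no threshold. Without pLV-Exo-Wnt5a replicate 3 the second was -0.64, past the unadjusted threshold.

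Cntfr, the chain that binds Cntf, had 202, 154 and 159 CPM in Con, 135, 139 and 149 CPM in Exo, and 153, 157 and 156 CPM in pLV-Exo-Wnt5a. The Exo libraries were the lowest 3 of the 9, and Con replicate 1 was the highest. Cntfr fell at the unadjusted threshold in Exo against Con (log2FC -0.30, SE 0.11, Q = 0.289) and rose in pLV-Exo-Wnt5a against Exo (0.16, SE 0.06, Q = 0.333). Without Con replicate 1 its log2FC in Exo against Con was -0.16, past the unadjusted threshold. Its p there was under 0.05 in 9 of 12 alternative fits, and the threshold was missed without Exo replicate 1 or 2. In pLV-Exo-Wnt5a against Exo its p was under 0.05 in 7 of 12, missed when Exo replicate 1 or 2 or pLV-Exo-Wnt5a replicate 2 or 3 was left out and in the fit over all 9 libraries.

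With all libraries in the edgeR fit, the Janus kinases passed no threshold in the 3 comparisons, although some alternative fits passed the unadjusted one. Jak1 had 68.1, 92.9 and 93.9 CPM in Con, 89.2, 91.6 and 86.1 CPM in Exo, and 80.5, 79.8 and 82.4 CPM in pLV-Exo-Wnt5a. All pLV-Exo-Wnt5a libraries were below all Exo libraries, with a log2FC of -0.12 (95% interval -0.25 to 0.01, Q = 0.446) and p under 0.05 in 1 of 12 alternative fits. Con replicate 1 was the lowest of the 9. Without it, Jak1 in pLV-Exo-Wnt5a against Con passed the unadjusted threshold at a log2FC of -0.21 (Q = 0.328), in place of -0.07 with it.

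Jak2 had 6.15, 12.5 and 15.6 CPM in Con, 18.2, 14.6 and 9.82 CPM in Exo, and 8.78, 10.5 and 13.4 CPM in pLV-Exo-Wnt5a. The groups overlapped, and the range within Con was wider than that of the group means, 10.9 to 14.2 CPM. Its log2FC was 0.31 in Exo against Con (95% interval -0.37 to 0.99) and -0.37 in pLV-Exo-Wnt5a against Exo (95% interval -0.84 to 0.11). The latter passed the unadjusted threshold in 3 of 12 alternative fits, among them the fit that left out Exo replicate 3, at -0.57, and the one that left out pLV-Exo-Wnt5a replicate 3, at -0.55.

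Stat3, the transcription factor of the pathway, was the gene of the 10 with the most counts, 9321 to 15675 per library. It had 315, 278 and 284 CPM in Con, 272, 244 and 252 CPM in Exo, and 335, 308 and 379.6 CPM in pLV-Exo-Wnt5a. All Exo libraries were below all Con libraries, and all pLV-Exo-Wnt5a libraries were above all Exo libraries. Con and pLV-Exo-Wnt5a overlapped, since Con replicate 1 exceeded pLV-Exo-Wnt5a replicate 2. Group means were 292 ± 20.0, 256 ± 14.2 and 341 ± 36.1 CPM (SD, n = 3 each).

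Stat3 rose in pLV-Exo-Wnt5a against Exo by a log2FC of 0.43 (SE 0.08, 95% interval 0.25 to 0.60). It had the last of the 66 Q values under 0.05 in this comparison, at 0.0498, and its fold change of 1.34 was under the 2-fold limit of the stricter of the 2 definitions of differentially expressed genes in the study. Its p was under 0.05 in 12 of 12 alternative fits and its Q in 6 of 12. The Q was 0.0507 when 10 counts were required in every library and 0.0767 in the fit over all 9 libraries. It reached 0.292 without Exo replicate 2 and 0.000304 with DESeq2. In Exo against Con, Stat3 fell at the unadjusted threshold (log2FC -0.20, SE 0.08, Q = 0.299), with p under 0.05 in 9 of 12 alternative fits. The threshold was missed without Exo replicate 2 or 3. In pLV-Exo-Wnt5a against Con, its log2FC was 0.21 (SE 0.10, Q = 0.597), with p under 0.05 in 7 of 12 alternative fits. DESeq2 and the fits without Con replicate 2 or 3 or pLV-Exo-Wnt5a replicate 1 or 3 missed it. Without Con replicate 1 this log2FC was 0.28 (Q = 0.304), and over the 12 alternative fits it ran from 0.13 to 0.29.

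Socs3, the feedback inhibitor that STAT3 induces, had 11.0, 7.81 and 8.03 CPM in Con, 9.53, 8.86 and 7.12 CPM in Exo, and 15.8, 10.4 and 16.8 CPM in pLV-Exo-Wnt5a. All pLV-Exo-Wnt5a libraries were above all Exo libraries. Replicate 2 was the lowest of its group, below Con replicate 1, as it also was for Stat3. Socs3 rose at the unadjusted threshold in pLV-Exo-Wnt5a against Exo (log2FC 0.77, SE 0.18, Q = 0.114, a fold change of 1.70) and against Con (0.67, SE 0.21, Q = 0.478). Against Exo its p was under 0.05 in 12 of 12 alternative fits and its Q in 3 of 12, among them DESeq2 at 0.00551. Between Exo and Con its log2FC was -0.09 (95% interval -0.50 to 0.33).

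**Figure D1:**
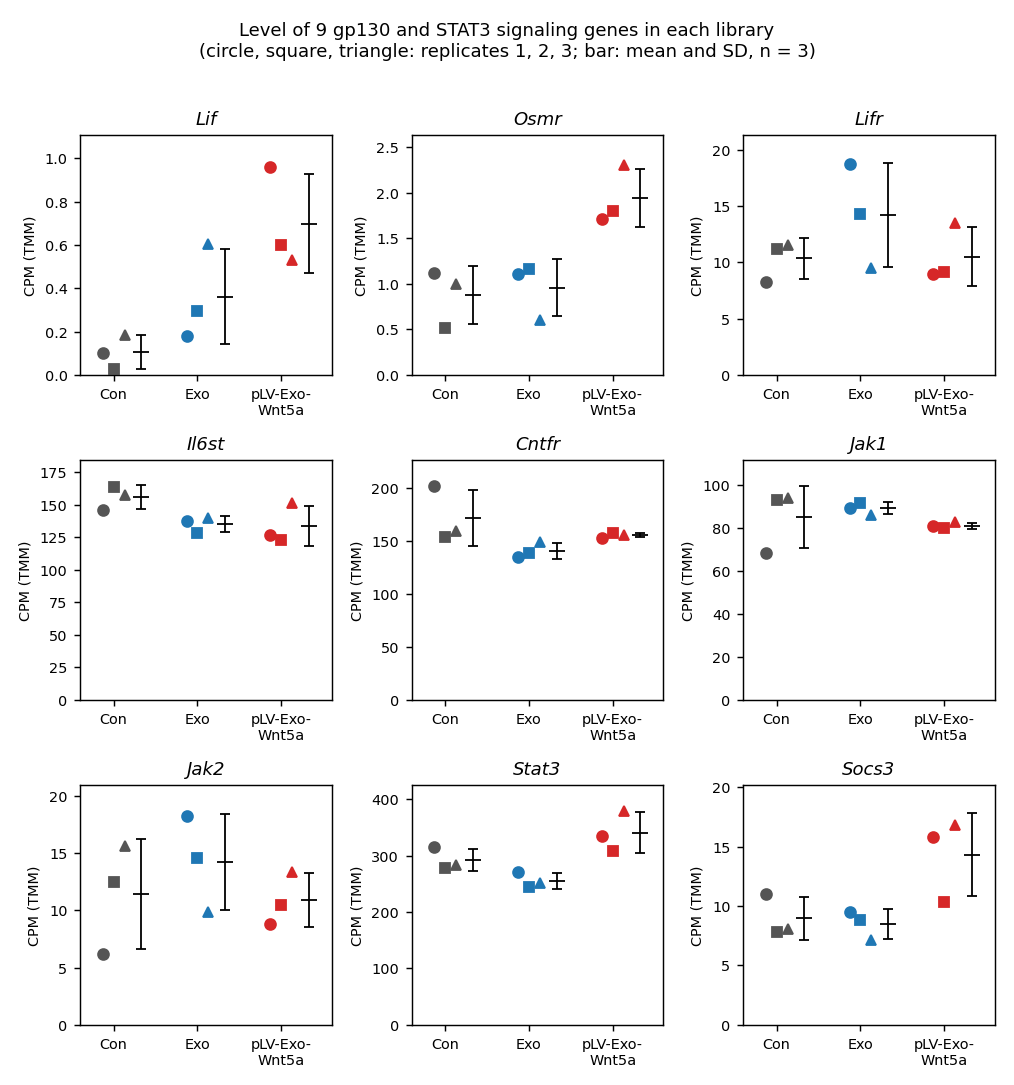
Level of 9 of the 10 genes in each library, in CPM after TMM normalization on linear axes that start at 0, by group. Circles, squares and triangles are replicates 1, 2 and 3, and bars give the mean and SD (n = 3). Cntf, with 1 count in all, is left out. In the Osmr panel the pLV-Exo-Wnt5a libraries, 1.72 to 2.30 CPM, lie above all others, and in the Stat3 panel the Exo libraries, 244 to 272 CPM, lie below all others.

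Counted together, 3 of the 8 genes tested in Exo against Con had an unadjusted p under 0.05, all of them lower in Exo, where 6.01% of all 15070 genes tested were lower and 8.92% higher with such a p. In pLV-Exo-Wnt5a against Exo it was 4 of 9 genes, all higher, where 5.07% of all 15132 genes were higher and 6.91% lower. Q was under 0.05 for 1 of the 9, Stat3, beside 0.436% of all genes. In pLV-Exo-Wnt5a against Con it was 5 of 9, with 4 higher and 1 lower, where 4.20% of all 15089 genes were higher and 4.15% lower. Lif, 1 of these 4, passed the filter on low counts only through pLV-Exo-Wnt5a, which also holds where it is counted below. Q was under 0.05 for 0 of the 9 there, and for 0 of the 8 in Exo against Con, by edgeR and by DESeq2, beside 0.0862% and 0.00664% of all genes by edgeR. DESeq2 gave 4 and 3 genes with an unadjusted p under 0.05 in these 2 comparisons, beside 8.18% and 14.3% of all genes. Without Exo replicate 2, the count in Exo against Con was 0, beside 8.64% of all genes. With the study's 2-fold limit added to Q, 0 of the genes passed in any comparison by edgeR, beside 0.00664% of all genes in Exo against Con, 0.159% in pLV-Exo-Wnt5a against Exo and 0.0663% in pLV-Exo-Wnt5a against Con. The study also applied a looser limit to the comparison of pLV-Exo-Wnt5a with Exo, an absolute log2FC above 0.58 with p under 0.05. Under it 2 of the 9 genes passed, Socs3 and Osmr, both higher, where 1.51% of all genes were higher and 1.98% lower. The libraries of the groups did not overlap for 3 of 8 genes in Exo against Con, all lower in Exo, beside 23.3% of all genes (10.9% higher). They did not overlap for 5 of 9 in pLV-Exo-Wnt5a against Exo, 4 higher and Jak1 lower, beside 16.4% (7.50% higher), and for 2 of 9 in pLV-Exo-Wnt5a against Con, Lif and Osmr, both higher, beside 17.1% (7.67% higher). The median log2FC of the genes was -0.01, 0.16 and 0.02 in these 3 comparisons, beside 0.00 for all genes in each. Exo is shared by the first 2 comparisons, and Con and pLV-Exo-Wnt5a are each shared by another pair. The signs are therefore not independent.

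**Figure D2:**
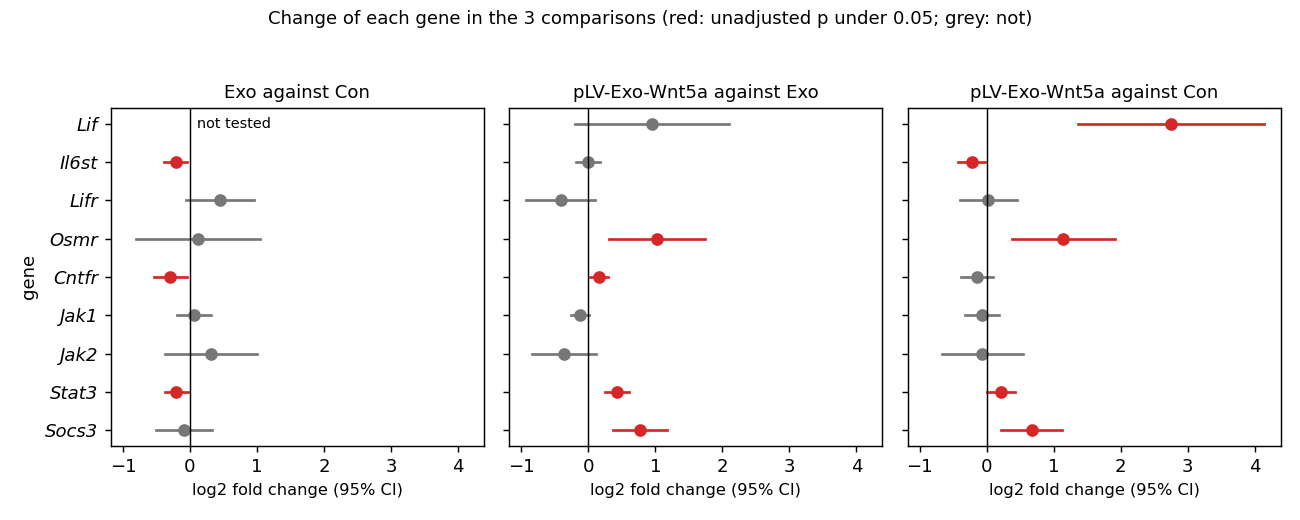
Log2 fold change with its 95% interval (horizontal axis) of each of the 9 genes tested, in the 3 pairwise comparisons. Red marks an unadjusted p under 0.05 and grey the others. Against Exo, the intervals of Stat3, Socs3, Osmr and Cntfr lie above 0, at estimates of 0.43, 0.77, 1.03 and 0.16, while that of Il6st is centred on 0.

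A single test of any difference among the 3 groups, with 1 estimate of the spread over the 9 libraries, gave an unadjusted p under 0.05 for 6 of 9 genes, beside 14.8% of all 15458 genes. These were Stat3, Socs3, Lif, Osmr, Cntfr and Il6st, in order of p, and Lifr, Jak2 and Jak1 did not pass. The lowest Q was 0.143, for Stat3.

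The genes whose levels ran most like those of Stat3 over the 9 libraries were Apcdd1, an inhibitor of Wnt signaling, A2m, a protease inhibitor of the acute phase, and Susd6. The root mean square difference of their z-scored log2 CPM from that of Stat3 was 0.113, 0.166 and 0.175, out of 15457 genes ranked. For Socs3 they were Foxj1, a transcription factor of ciliated cells, B2m, the light chain of MHC class I, and Ifitm2, an interferon-inducible membrane protein, at 0.228, 0.267 and 0.278. These are descriptions over 9 libraries of 3 groups, and all 9 libraries enter both rankings. Close copies of Ifitm2 exist, and counting could have split reads between them.

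Of 26 genes widely described as STAT3 targets, a list that holds Stat3, Socs3, Osmr and Il6st, 20 had a log2FC above 0 and 6 below 0 in pLV-Exo-Wnt5a against Exo, and likewise 20 and 6 against Con. Against Exo, 15 of 26 had an unadjusted p under 0.05, with 14 higher and 1, Hif1a, lower, beside 5.07% of all genes higher and 6.91% lower. Q was under 0.05 for 5 of them: Serpina3n, Gfap, A2m, Cebpd and Stat3, beside 0.436% of all genes. DESeq2 gave 13 with Q under 0.05, beside 427 of all 15132 genes. Against Con it was 15 of 26, with 14 higher and 1, Il6st, lower, beside 4.20% and 4.15% of all genes, and Q under 0.05 for 1, Serpina3n, by edgeR (0.0862% of all genes) and for 5 by DESeq2 (79 of all 15089 genes). The median log2FC was 0.47 against Exo and 0.51 against Con. In Exo against Con, 3 of 25 had an unadjusted p under 0.05, all lower (A2m, Il6st and Stat3), beside 6.01% of all genes lower, with a median of -0.09 and Q under 0.05 for 0 of 25 by either tool. Lcn2, among the higher targets against Exo and against Con, passed the filter on low counts only through pLV-Exo-Wnt5a. The list was written with earlier results of these data known and is no independent evidence of direction.

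Leaving out the genes of the pathway itself, 22 targets remained. Against Exo, 12 had an unadjusted p under 0.05, 11 of them higher, with a median log2FC of 0.46, beside 5.07% of all genes higher and 6.91% lower. Against Con 11 had, all higher, with a median of 0.51, beside 4.20% of all genes higher. Of the 26 targets, 10 had all pLV-Exo-Wnt5a libraries above all 6 other libraries, beside 1.96% of all genes: Bcl3, Cebpd, Junb, Fos, Timp1, Lcn2, Serpina3n, Gfap, A2m and Osmr. The names in this paragraph outside the 10 genes were listed after their values were seen. Lcn2, counted in each of these results, passed the filter on low counts only through pLV-Exo-Wnt5a.

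Serpina3n, a secreted serine protease inhibitor of reactive astrocytes, had 65.1, 35.2 and 40.1 CPM in Con, 35.0, 36.0 and 36.9 CPM in Exo, and 234, 224 and 266 CPM in pLV-Exo-Wnt5a. The pLV-Exo-Wnt5a libraries lay far above the others. Its log2FC was 2.76 against Exo (SE 0.08, Q = 2.64e-08) and 2.35 against Con (SE 0.20, Q = 0.000912), with Q under 0.05 in 12 of 12 alternative fits of each. Serpina3n belongs to a family of close copies, among which counting could have split reads.

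Gfap, the intermediate filament of astrocytes, had 3054, 2261 and 2302 CPM in Con, 2222, 2204 and 2277 CPM in Exo, and 3969, 4080.2 and 4028 CPM in pLV-Exo-Wnt5a. The spread within pLV-Exo-Wnt5a and Exo was narrow, and Con replicate 1 stood above its group. Its log2FC against Exo was 0.86 (SE 0.05, Q = 3.36e-05), and against Con 0.66 (SE 0.12, past the unadjusted threshold, Q = 0.129).

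A2m had 195, 163 and 169 CPM in Con, 151, 119.5 and 132 CPM in Exo, and 253, 231 and 333 CPM in pLV-Exo-Wnt5a. It repeated the order of Stat3 without overlap: Exo lowest, Con between, pLV-Exo-Wnt5a highest. A2m fell at the unadjusted threshold in Exo against Con (log2FC -0.40, SE 0.10, Q = 0.265) and rose in pLV-Exo-Wnt5a against Exo (1.04, SE 0.13, Q = 0.00489).

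The transcription factors and regulators of the list followed. Cebpd, an acute-phase transcription factor, had 5.98 to 7.37 CPM in Con, 4.90 to 6.48 CPM in Exo and 10.6 to 15.7 CPM in pLV-Exo-Wnt5a. It rose against Exo with a log2FC of 1.19 (SE 0.18, Q = 0.0163). Bcl3, an atypical IκB protein, had 0.243 to 0.804, 0.346 to 0.594 and 1.45 to 1.84 CPM, and a log2FC against Exo of 1.83 (SE 0.34, Q = 0.0512). Fos, a subunit of AP-1, had 14.8 to 19.0, 16.4 to 22.9 and 25.6 to 34.8 CPM, and a log2FC of 0.76 (SE 0.15, Q = 0.0563). Bcl3 and Fos passed the unadjusted threshold by edgeR and had Q under 0.05 by DESeq2, and Q was under 0.05 in 3 of 12 alternative fits for Bcl3 and 5 of 12 for Fos. For Cebpd, Bcl3 and Fos alike, the pLV-Exo-Wnt5a libraries were above the other 6.

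Lcn2, the iron-carrier binding protein lipocalin, had 4 counts summed over Con and 5 over Exo, all 5 in replicate 1. The pLV-Exo-Wnt5a libraries held 107 counts in all, 21 to 54 each. Lcn2 passed the filter on low counts only through these libraries, where it was high, so the filter largely fixed its direction. Its log2FC against Exo was 4.36 with a wide error (SE 0.88, Q = 0.0653), past the unadjusted threshold by edgeR and with Q under 0.05 in 3 of 11 alternative fits, DESeq2 among them. It was 3.80 to 4.65 over 10 of these fits. The other, without Exo replicate 1, leaves Exo at 0 counts, and its higher fitted value depends on the prior count.

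**Figure D3:**
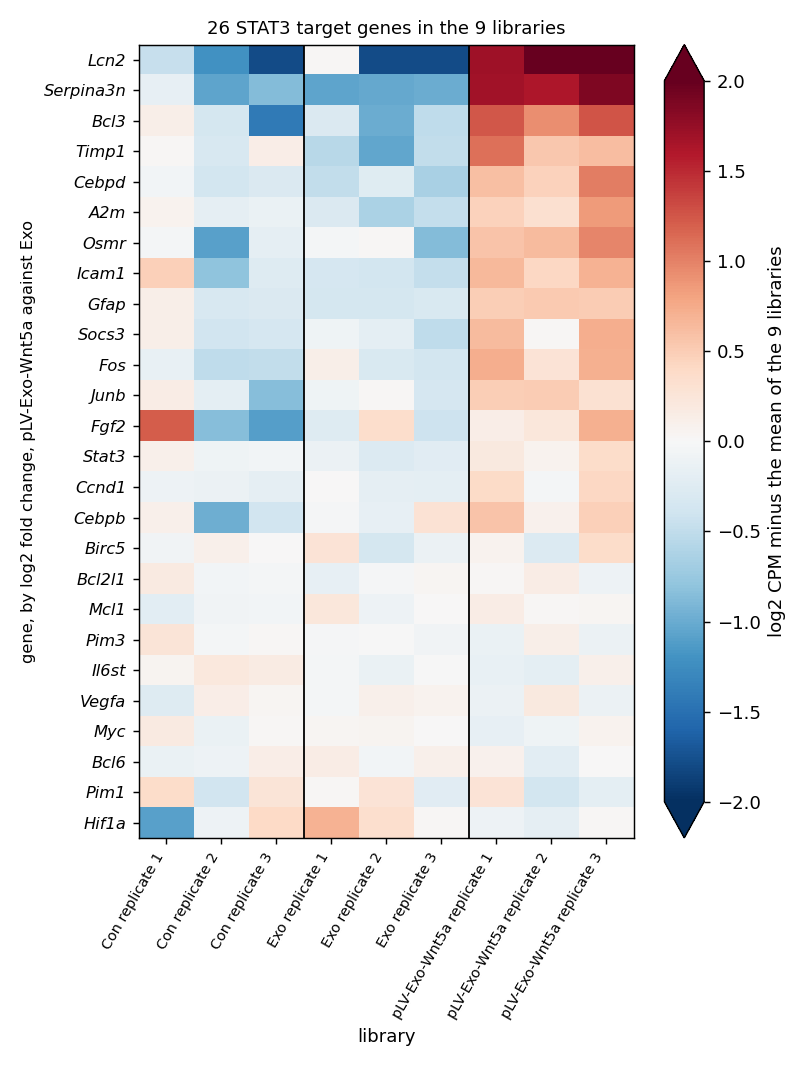
Log2 CPM of the 26 STAT3 target genes in the 9 libraries, each gene centred on its mean over the libraries, with the colour scale held at 2 on either side of 0. Rows are ordered by log2 fold change of pLV-Exo-Wnt5a against Exo. From Lcn2 to Junb at the top the 3 pLV-Exo-Wnt5a columns are above the gene's mean, the nearest to it being Socs3 in replicate 2, near white at 0.029. Con replicate 1 differs from the other Con columns in several rows, and Bcl2l1 to Bcl6 are pale throughout.

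The other genes of the pathway, 35 by list with 34 in the table and 29 tested, moved in both directions. In pLV-Exo-Wnt5a against Exo, 10 of 29 had an unadjusted p under 0.05, 6 upward and 4 downward, beside 5.07% of all genes upward and 6.91% downward, and the list's median log2FC was 0.02. Leaving out Exo replicate 2 brought that count to 3, beside 8.67% of all genes. It was 4 (9.39% of all genes) without pLV-Exo-Wnt5a replicate 2, 5 (8.55%) when Exo replicate 1 was left out and 6 (7.41%) in the fit over all 9 libraries. In Exo against Con it was 2 of 29, 1 in each direction, beside 8.92% of all genes higher and 6.01% lower. In pLV-Exo-Wnt5a against Con it was 3 of 29, 2 higher and 1 lower, beside 4.20% and 4.15%. The medians were -0.07 and 0.03. Q was under 0.05 for 0 of 29 in each of the 3 comparisons by edgeR, and by DESeq2 for 2 of 29, Jak3 and Ptprt, in pLV-Exo-Wnt5a against Exo, beside 427 of all 15132 genes.

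Among the ligands, Ctf1 (cardiotrophin 1) had 2.17, 2.08 and 2.68 CPM in Exo and 2.80, 3.47 and 3.27 CPM in pLV-Exo-Wnt5a, with a log2FC of 0.47 past the unadjusted threshold (SE 0.21, Q = 0.411). Its p was under 0.05 in 6 of 12 alternative fits, 2 of the 6 that left out a library. The interleukin-6 gene Il6 had 2 counts in all, in Exo, and the oncostatin M gene Osm had 3, in pLV-Exo-Wnt5a. Clcf1, Il27ra and Stat4 also failed the filter on low counts, and Il27 was not in the table. Of the receptors, Il11ra1, the chain for interleukin-11, fell at the unadjusted threshold in pLV-Exo-Wnt5a against Con (log2FC -0.43, Q = 0.509).

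The kinase Jak3 had 5.11, 4.34 and 4.14 CPM in Con, 4.19, 5.07 and 3.61 CPM in Exo, and 6.96, 5.80 and 6.78 CPM in pLV-Exo-Wnt5a, the last above all other libraries. Its log2FC was 0.61 against Exo (SE 0.17, Q = 0.176) and 0.51 against Con (SE 0.18, Q = 0.529), both past the unadjusted threshold. The interferon-responsive factor Stat2 had a log2FC of 0.20 against Exo (SE 0.07, Q = 0.297), and the interleukin-4 factor Stat6 one of 0.73 (SE 0.30, Q = 0.377). Both rose at the unadjusted threshold, Stat2 in 11 of 12 alternative fits and Stat6 in 7 of 12, 2 of the 6 that left out a library. Jak3 passed it in 12 of 12 against Exo and 9 of 12 against Con. By edgeR none of these 3 genes had Q under 0.05, while DESeq2 gave Jak3 a Q of 0.0442 against Exo.

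Of the 16 other inhibitors, 4 fell at the unadjusted threshold in pLV-Exo-Wnt5a against Exo and 1 rose, beside 6.91% and 5.07% of all genes. The receptor phosphatase Ptprt had a log2FC of -0.34 (SE 0.10), Socs4 of -0.53 (SE 0.23), the phosphatase Ptpn2 of -0.35 (SE 0.15) and Pias2 of -0.21 (SE 0.09). Socs7 was the one that rose, at 0.16 (SE 0.07). In 12 alternative fits each, p was under 0.05 in 12 for Ptprt, 6 for Socs4, 6 for Ptpn2, 8 for Pias2 and 9 for Socs7. In Exo against Con, Socs4 rose (0.58, SE 0.23) and the phosphatase Ptpn6 fell (-1.20, SE 0.49) at the unadjusted threshold, 2 of the 16, where 8.92% of all genes rose and 6.01% fell. These passed in 9 and 8 of 12 alternative fits. The Q values of these inhibitors by edgeR in these comparisons were 0.174 or above.

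**Figure D4:**
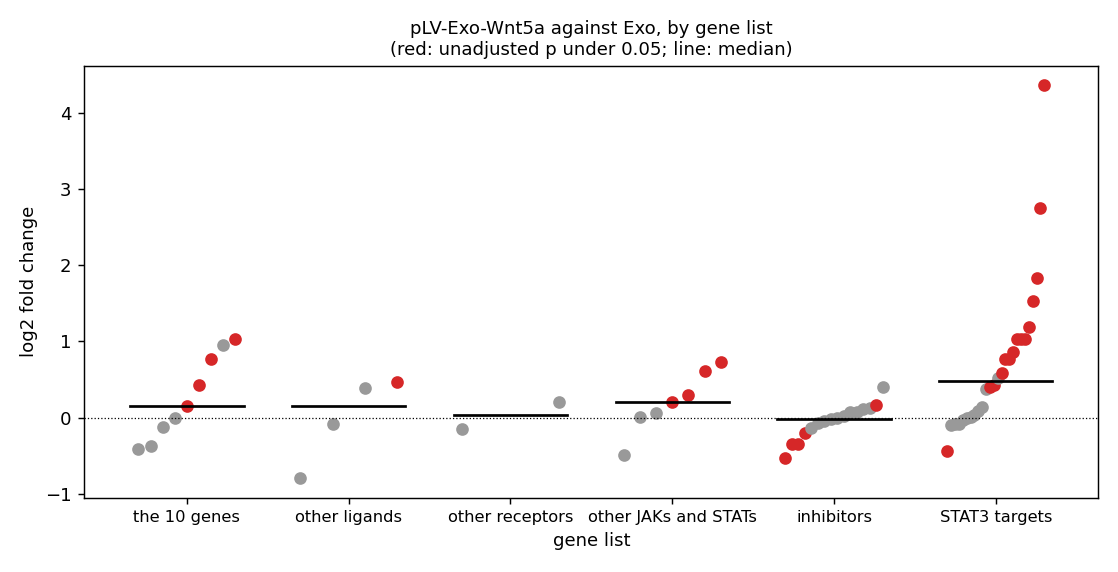
Log2 fold change of pLV-Exo-Wnt5a against Exo (vertical axis) for each gene tested, grouped by list on the horizontal axis. Red marks an unadjusted p under 0.05, and the black line is the median of the list. The median is 0.47 for the 26 STAT3 targets and 0.16 for the 9 tested of the 10 genes, and is close to 0 for the inhibitors.

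Markers of other cells moved with these groups. The summed level of the 10 microglia markers was 14.9 to 16.8 CPM in Con, 7.70 to 8.76 CPM in Exo and 13.1 to 17.4 CPM in pLV-Exo-Wnt5a. Of the 7 that could be tested, 7 were higher in pLV-Exo-Wnt5a than in Exo, 4 with an unadjusted p under 0.05 (5.07% of all genes), and 7 were lower in Exo than in Con, 4 with such a p (6.01% of all genes). P2ry12, Tmem119 and Ptprc failed the filter. Between pLV-Exo-Wnt5a and Con the summed levels overlapped, and 1 of the 7, Cx3cr1, fell at the unadjusted threshold (log2FC -1.40), beside 4.15% of all genes. The part of these cells in the differences between groups was not tested.

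Astrocyte markers without Gfap summed to 3103 to 3377 CPM in Con, 3041 to 3179 CPM in Exo and 2825 to 3253 CPM in pLV-Exo-Wnt5a, with all groups overlapping. Of these 10 markers, 1 rose and 4 fell at the unadjusted threshold in pLV-Exo-Wnt5a against Exo, with a median log2FC of -0.19, where 5.07% of all genes rose and 6.91% fell. Of the 10 neuron markers, 7 rose at that threshold in Exo against Con, with a median of 0.45, beside 8.92% of all genes, in the comparison where Stat3, Il6st and Cntfr fell. In it 3 of the 8 neural stem cell markers (Nes, Vim and Hes5) and 3 of the 8 oligodendrocyte markers tested (Sox10, Mbp and Mag) fell as well, beside 6.01% of all genes. In pLV-Exo-Wnt5a against Exo, 3 of the 10 fell (Map2, Dcx and Syt1), Dcx with Q under 0.05. In this comparison 2 of the 8 neural stem cell markers, Nes and Vim, rose at the threshold, Vim with Q under 0.05. So did Mbp and Mag of the 8 oligodendrocyte markers tested, and Acta2 of the 6 fibroblast and mural markers tested, while Cspg4 and Col3a1 of these lists fell. In pLV-Exo-Wnt5a against Con, 3 of the 10 neuron markers (Snap25, Stmn2 and Nefl) and Acta2 rose at the threshold, beside 4.20% of all genes. Hes5, Fgfr3, Sox10, Cspg4 and Pdgfrb fell at it, beside 4.15%. Of the astrocyte markers, Aqp4 and Gja1 rose and Aldh1l1 fell at it in Exo against Con. The part of these cells in the differences was not tested.

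Upstream sequence was read from RefSeq (rat, GRCr8) for the 250 bases before the start of each gene, matched by symbol, with 7 of the 10 genes and 21 of the 26 STAT3 targets found. The STAT motif TTCNNNGAA, which reads the same on both strands, was present in 0 of the 7 genes and in 3 of the 21 targets (14.3%), beside 7.52% of 27457 rat promoters. With 1 base less in the middle, TTCNNGAA was present in Cntf and Il6st, 2 of 7 (28.6%), and in 1 of the 21 targets (4.76%), Il6st, beside 7.23% of all promoters. With 1 base more than in the first motif, it was present in 0 of the 7 genes and in 1 of the 21 targets (4.76%), Gfap, beside 6.29% of all promoters. Sequences are shown for Serpina3n, the target with the smallest p and a motif in this window, and for Stat3 and Socs3, which had none in it. Each line reads 5′ to 3′ on the strand of the gene and ends at the base before its start, and capitals mark the motif.
Serpina3n, chr6:129088142-129088391, plus strand: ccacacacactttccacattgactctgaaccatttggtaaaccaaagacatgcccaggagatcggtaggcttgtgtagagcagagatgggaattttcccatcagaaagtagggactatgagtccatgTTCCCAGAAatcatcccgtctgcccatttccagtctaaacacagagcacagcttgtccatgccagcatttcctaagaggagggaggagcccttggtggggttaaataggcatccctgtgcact
Stat3, chr10:86363360-86363609, minus strand: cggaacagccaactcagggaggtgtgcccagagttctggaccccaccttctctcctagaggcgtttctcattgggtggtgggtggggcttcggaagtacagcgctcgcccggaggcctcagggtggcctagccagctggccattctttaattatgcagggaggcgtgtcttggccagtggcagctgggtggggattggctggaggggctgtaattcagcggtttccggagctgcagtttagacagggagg
Socs3, chr10:103694769-103695018, minus strand: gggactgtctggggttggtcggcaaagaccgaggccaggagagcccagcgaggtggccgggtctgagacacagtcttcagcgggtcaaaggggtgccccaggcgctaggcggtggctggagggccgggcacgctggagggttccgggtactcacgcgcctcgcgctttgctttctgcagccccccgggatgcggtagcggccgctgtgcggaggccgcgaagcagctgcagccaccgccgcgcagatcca
The Serpina3n match, TTCCCAGAA, lay 123 to 115 bases before the start. The other targets with a match were Icam1, with TTCCGGGAA at 107 to 99 bases, and Fgf2, with TTCCAAGAA at 128 to 120 bases before the start. A match describes these letters and is not a binding site, and a window without one leaves the rest of the gene unexamined. Of the 3 targets with a match, Icam1, which codes for an adhesion molecule, rose against Exo at the unadjusted threshold (log2FC 1.03, Q = 0.134), Serpina3n rose as given above, and the growth factor gene Fgf2 had a log2FC of 0.52 (Q = 0.742).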

How the data were processed

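The 9 RNA-seq libraries of NSCs (3 each for Con, Exo and pLV-Exo-Wnt5a) were used. The table deposited by the authors holds raw counts, whole numbers for each gene. The study's methods name HISAT2 for alignment, while the submitters' processing notes list Bowtie2, RSEM 1.3.1 and DESeq2 1.4.5 with no role. The genome build and the counting program are not given in the sources used here. Groups and replicate numbers came from the sample labels.

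Genes were filtered with filterByExpr over the 6 libraries of a comparison. Pairwise tests used edgeR 4.0.16 (R 4.3.3) after TMM normalization, by quasi-likelihood, with Benjamini-Hochberg adjustment (Q) over all genes tested. SEs of log2FC came from the F statistic, and intervals are at 95%. The study used DESeq2 and required for a call Q under 0.05 and a change above 2-fold or to below 0.5. For pLV-Exo-Wnt5a against Exo it also used an absolute log2FC above 0.58 with p under 0.05, taken here as unadjusted. Here members were counted at an unadjusted p under 0.05 as well. CPM used TMM over all 9 libraries, and log2 CPM a prior count of 2. Alternatives were RLE normalization, DESeq2 1.42.0, no filter, at least 10 counts in every library, the fit over all 9 libraries, the replicate number as a block, and leaving out each library.

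The genes and lists were chosen with earlier results of these data known. The naming rule took all 10 genes, other pathway genes with an unadjusted p under 0.05 in any comparison, the 8 STAT3 targets with the smallest p against Exo and the 3 with the smallest in Exo against Con, and the 3 genes most like Stat3 and Socs3. A pathway gene that this rule names is not reported here. Chi-square per degree of freedom between replicates was 7.79 to 53.4 over the 9 within-group pairs, above counting noise. On simulated data for pLV-Exo-Wnt5a against Exo, with 200 of 15162 genes changed 2-fold, edgeR recovered 96% with 12 false calls and DESeq2 93.5% with 26. Recovery of such a change in the 10 genes, at their own counts and spread between replicates, was not tested. Levels were not compared between genes, since gene lengths were not used here.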

Additional observations from a re-analysis of the deposited data

How the results depend on the processing

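Of the log2FC values of the 10 genes recomputed under the alternatives, 262 kept their direction and their side of the unadjusted threshold, 23 kept their direction and no longer passed it, 11 newly passed it and 14 changed sign. With no filter on low counts, the count of genes at an unadjusted p under 0.05 in Exo against Con was 5 for the 10 genes (3 as reported), 5 for the STAT3 targets (3) and 5 for the other pathway genes (2). The share of all genes was then 13.4%, against 14.9% as reported. The replicate block gave 0 (Stat3, Il6st and Cntfr past it no longer), 1 and 1 for these lists, beside 9.40% of all genes. For the other pathway genes in Exo against Con, DESeq2 gave 4 (14.3% of all genes) and the fit over all 9 libraries 5 (18.2%). In pLV-Exo-Wnt5a against Exo this fit gave 6 (10 as reported), beside 7.41% of all genes. The replicate block moved no other count by over 1.5 times. Same-numbered libraries did not deviate together (correlations between -0.201 and 0.0634 over 9 pairs), so the numbers do not pair the libraries.

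Leaving out 1 library each, the 10 genes gave 0 to 4 in Exo against Con (0 without Exo replicate 2), 3 to 7 in pLV-Exo-Wnt5a against Exo (7 without Exo replicate 3), 3 to 6 in pLV-Exo-Wnt5a against Con (3 without pLV-Exo-Wnt5a replicate 1 or Con replicates 2 or 3), and 4 to 7 in the test of all 3 groups. In the same comparisons the STAT3 targets gave 1 to 5 (1 without Exo replicate 2, 5 without Con replicate 1 or 3), 15 to 16 and 11 to 17. The other pathway genes gave 0 to 5 (0 without Con replicate 1, 5 without Con replicate 3), 3 to 8 and 2 to 6 (6 without Con replicate 1). Over the same fits the share of all genes was 8.64% (without Exo replicate 2) to 23.4% (without Con replicate 3), 8.55% to 13.4% and 4.07% to 14.4%. The cause was not tested.

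When single libraries were left out, log2FC changed sign only where no test passed the unadjusted threshold as reported. In Exo against Con it ran from -0.18 to 0.095 for Socs3 (above 0 without Con replicate 1 or Exo replicate 3), -0.16 to 0.38 for Osmr (below 0 without Con or Exo replicate 2) and -0.077 to 0.13 for Jak1 (below 0 without Con replicate 1). For Il6st in pLV-Exo-Wnt5a against Exo it ran from -0.11 to 0.054. In pLV-Exo-Wnt5a against Con it ran from -0.20 to 0.12 for Lifr and from -0.36 to 0.21 for Jak2. The levels of Lif, Cntf and Lcn2 rested on few counts.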
